A study of Carica papaya with 15 samples.

Results

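Senescence and cell death were followed in the pulp of "Golden" papaya (Carica papaya) through 5 genes annotated for them, out of 20332 genes in the expression table. They were SAG29 (LOC110810803), SAG101 (LOC110820284), LSD1 (LOC110816376), DND1 (LOC110820129) and BETA-VPE (LOC110817536). They were chosen by their calls in an earlier fit of these same libraries, in which 4 of them were higher and BETA-VPE was lower in T12h than in C0h fruit. All 5 passed the filter on low values, a mean of at least 5 normalized counts. The table held 15 RNA-seq libraries in 5 groups of 3, all from fruit bought at the pre-climacteric stage with a mostly green peel. C0h was frozen on arrival, and C12h and C24h were control fruit kept for 12 and 24 h. T12h fruit spent 12 h in ethylene at 100 ppm and were then aired for 1 h before sampling, a point called the end of the gas below. T24h fruit were sampled at 24 h, after a further 12 h out of the gas. The letters A, B and C mark 3 monthly harvests, and each library was 1 pool of peeled, seedless pulp of several fruit of 1 harvest, so that a replicate is a pool and not a fruit. The values were read counts that the authors had scaled by the size factor of the library, here called normalized counts.

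Senescence is the ordered last phase of a plant organ, in which chloroplasts are dismantled, sugars and nitrogen are moved out, and cells finally die, and ethylene is among its main promoters. Ripening of a climacteric fruit such as papaya shares genes with leaf senescence, and ethylene promotes both. The roles given here are known from Arabidopsis. SAG29 is SWEET15, a sucrose transporter of the plasma membrane that was first found in senescing leaves. SAG101 is a lipase-like protein that pairs with EDS1 in immune signalling and is itself a senescence-associated gene. LSD1 is a zinc finger protein that restrains the spread of cell death from a lesion. DND1 is CNGC2, a cyclic nucleotide-gated calcium channel whose loss gives plants that defend themselves without a hypersensitive response. BETA-VPE is a vacuolar processing enzyme, a cysteine protease best known for maturing storage proteins in seeds, and its family includes the caspase-like proteases of vacuolar cell death.

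The total reads of a library were 7999275 at the lowest (C24h B) and 12542678 at the highest (C0h C) over the 13 libraries in which they were recovered. Summed normalized counts were 8314364 to 9593068 in control libraries other than C24h B, 12070774 in C24h B, and 10874253 to 13283883 in treated libraries. C24h B thus stood with the treated libraries, and results that rest on it are given with and without it. Leaving out a control library for its likeness to treated ones favours a difference between treated and control fruit. Of 7 seed markers matched, ABI3 was at 0 in every library, and PER1, EM1 and FUS3 reached at most 0.763, 0.868 and 5.55 normalized counts. CRB ranged from 4.46 to 15.1, ATS1 from 12.7 to 52.4, and CRC from 0.868 in C24h C to 225 in C12h A. The summed level of the list was 43.4 to 282 normalized counts per library. The summed level of 24 green tissue markers was 2680 to 5010 normalized counts in C0h, 3133 to 4245 in C12h, 3080 to 4256 in C24h, 2519 to 3090 in T12h and 2295 to 3460 in T24h. The part of these differences in the results below was not tested, and in bulk pulp fewer cells of a type and less RNA per cell cannot be told apart.

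SAG29 had the widest range of the 5 genes, its highest library standing 29.7-fold above its lowest. In C0h its normalized counts were 334, 199 and 201 in harvests A, B and C, and in C12h they were 76.0, 354 and 162. In C24h they were 278, 1222 and 189. The second of these was C24h B, which held more SAG29 RNA than any other control library. In T12h the values were 1170, 1441 and 1424, and in T24h they were 2259, 553 and 1315. Treated libraries were thus high at the end of the gas and spread widely 12 h later, where T24h B was the lowest of the 6 treated pools. The means were 1376 ± 854 in T24h, 1345 ± 152 in T12h, 563 ± 573 in C24h, 244 ± 77.3 in C0h and 198 ± 142 in C12h (SD, n = 3). T24h and T12h, T24h and C24h, and the 3 control groups overlapped, and so did T12h and C24h through C24h B.

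SAG101 was present in every pool and was highest at the end of the gas, with a highest to lowest ratio of 3.60 over the 15 libraries. Its normalized counts in harvests A, B and C were 1237, 1055 and 779 in C0h, 1025, 1217 and 1057 in C12h, and 1250, 1568 and 1112 in C24h. In T12h they were 2684, 2210 and 2804, above every control library. In T24h they were 2538, 1542 and 1539, so that harvest A stayed high while B and C lay just under the 1568 of C24h B. The order of means was 2566 ± 314 in T12h, 1873 ± 576 in T24h, 1310 ± 234 in C24h, 1100 ± 103 in C12h and 1024 ± 231 in C0h (SD, n = 3). All neighbours in that order overlapped.

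LSD1 had the narrowest range, with its highest library 2.01-fold above its lowest. In harvests A, B and C it stood at 763, 727 and 634 normalized counts in C0h, at 725, 746 and 623 in C12h, and at 712, 1109 and 613 in C24h. C24h B was again the high control library, and the other 8 control libraries reached at most 763. The treated values were 1119, 1091 and 944 in T12h and 1235, 1010 and 1164 in T24h. Each treated library was above all control libraries other than C24h B, and the 2 treated groups overlapped. The means were 1136 ± 115 in T24h, 1051 ± 93.8 in T12h, 812 ± 262 in C24h, 708 ± 66.5 in C0h and 698 ± 66.1 in C12h (SD, n = 3).

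DND1 was high in T12h and not in T24h. Its normalized counts in harvests A, B and C were 3515, 1973 and 1833 in C0h, 1757, 2590 and 1850 in C12h, and 2357, 2389 and 2035 in C24h. In T12h they were 4259, 4221 and 3683, above all 12 other libraries, the nearest of which was C0h A. In T24h they were 2654, 1513 and 2326, within the range of the control libraries except for T24h B, which was the lowest of all 15. The means were 4054 ± 322 in T12h, 2440 ± 933 in C0h, 2260 ± 196 in C24h, 2165 ± 588 in T24h and 2066 ± 457 in C12h (SD, n = 3), and the last 4 overlapped.

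BETA-VPE was the gene of the 5 that was lower in treated fruit, with a highest to lowest ratio of 21.8. Its normalized counts in harvests A, B and C were 503, 973 and 1342 in C0h, 554, 445 and 792 in C12h, and 632, 232 and 697 in C24h. The lowest control library was C24h B. In T12h they were 159, 175 and 182, the tightest group of the gene, and in T24h they were 61.7, 298 and 196. T24h B was the only treated library above a control library. The means were 940 ± 421 in C0h, 597 ± 177 in C12h, 520 ± 252 in C24h, 185 ± 118 in T24h and 172 ± 11.7 in T12h (SD, n = 3), and each group overlapped its neighbours in that order.

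**Figure D1:**
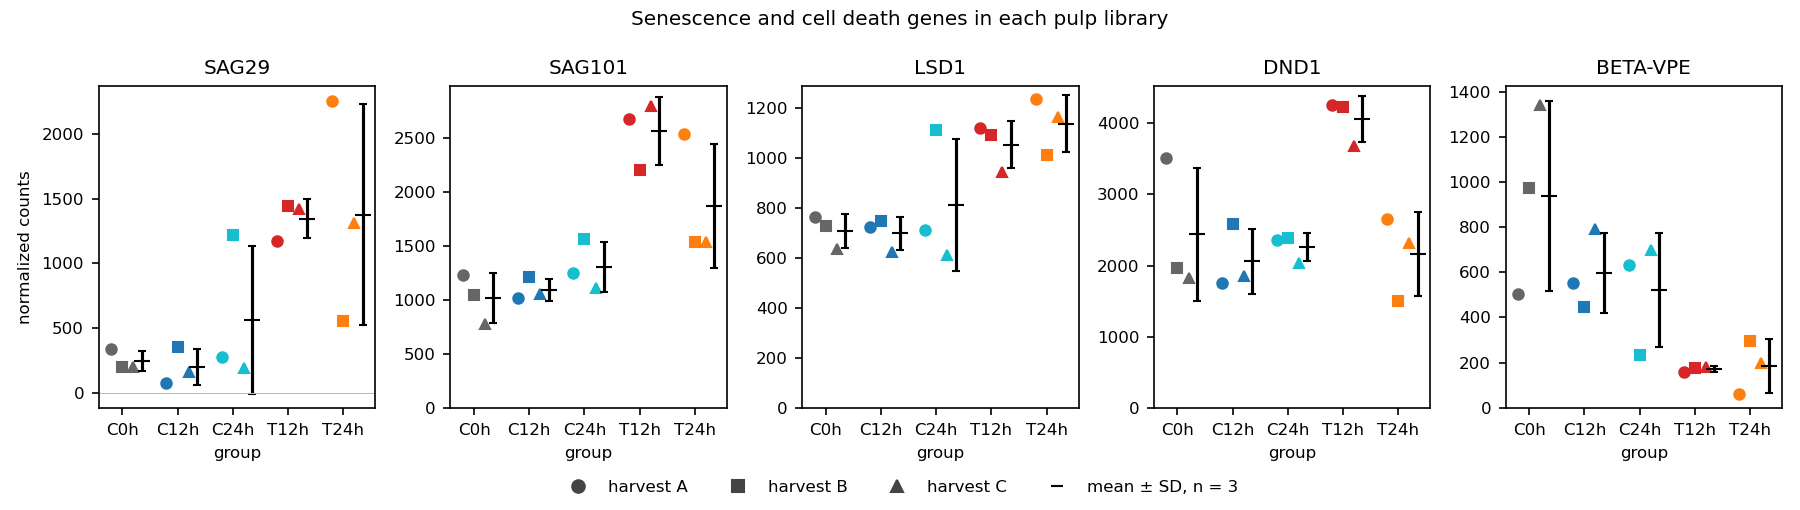
Normalized counts of the 5 genes in each of the 15 libraries, by group, with harvests A, B and C as circles, squares and triangles and the mean ± SD (n = 3) beside them. T12h libraries of SAG101 and DND1 lie above all control libraries and those of BETA-VPE below them, and C24h B lies with the treated libraries for SAG29, LSD1 and BETA-VPE.

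The first comparisons used the groups that chose the genes, so they carry no test. Between C0h and T12h the log2 fold change, treated over start, was 2.49 (SE 0.67) for SAG29, 1.34 (SE 0.22) for SAG101, 0.57 (SE 0.19) for LSD1, 0.79 (SE 0.26) for DND1 and -2.33 (SE 0.53) for BETA-VPE. In that comparison 11.8% of all 15270 genes tested were called higher and 12.2% lower at an adjusted p of at most 0.05. All libraries of the 2 groups stood apart for all 5 genes, as they did for 49% of all genes, and nothing is read from that, since the comparison made the choice. Ratios on the log2 scale were taken after adding 1 to each value, with all groups in 1 limma fit.

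Control fruit of the same age gave the same directions, with the T12h libraries shared with the choice. Between C12h and T12h the log2 fold changes were 3.02 for SAG29, 1.22 for SAG101, 0.59 for LSD1, 0.99 for DND1 and -1.75 for BETA-VPE. The groups did not overlap for any of the 5, against 52.4% of all genes. Within harvests A, B and C, SAG29 was 15.4-, 4.07- and 8.77-fold higher in T12h than in C12h. SAG101 was 2.62-, 1.82- and 2.65-fold higher, LSD1 1.54-, 1.46- and 1.52-fold, and DND1 2.42-, 1.63- and 1.99-fold. The ratio of BETA-VPE was 0.288, 0.394 and 0.230. Thus each gene moved the same way in all 3 harvests at 12 h, and for each the ratio of harvest B was the nearest to 1. Against C24h, T12h stood apart for SAG101 and DND1, which were higher, and for BETA-VPE, which was lower (3 of 5, against 26.3% of all genes).

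**Figure D2:**
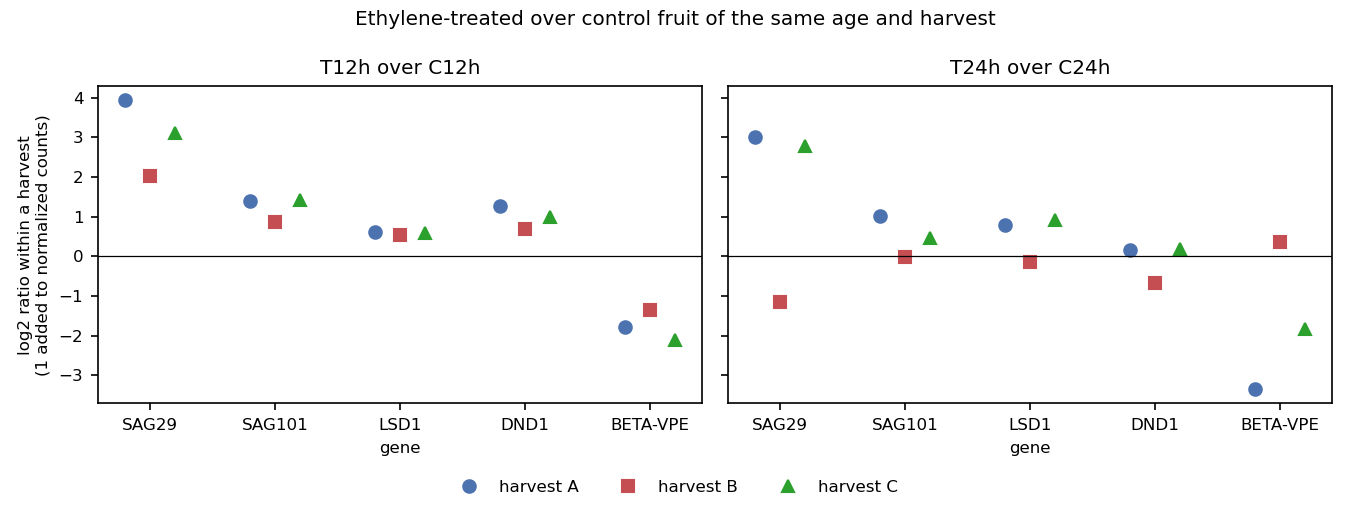
Log2 ratio of treated to control fruit of the same age and harvest for the 5 genes, with 1 added to each value, at 12 h on the left and at 24 h on the right. At 12 h the 3 harvests lie on the same side of 0 for each gene, and at 24 h harvest B lies on the other side of 0 from harvests A and C.

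Whether the differences persisted 12 h after the gas was tested in the 9 libraries of C12h, C24h and T24h, which lie outside the comparison that chose the genes. They had entered the earlier fit only through its shared estimate of the spread. T24h and C12h differ both in ethylene and in 12 h of storage, which this pair cannot tell apart. T24h against C24h, given further below, is the pair of the same age. In T24h against C12h, SAG29, SAG101 and LSD1 stood above and BETA-VPE below with no overlap between groups (4 of 5 genes, against 44.2% of all genes), and DND1 overlapped. The log2 fold change of SAG29 was 2.84 (SE 0.78, 95% interval 1.09 to 4.60, limma adjusted p = 0.0820). It was 0.73 for SAG101 (SE 0.23, adjusted p = 0.0904) and 0.70 for LSD1 (SE 0.23, adjusted p = 0.0923). BETA-VPE gave -1.91 (SE 0.58, 95% interval -3.22 to -0.60, adjusted p = 0.0861). DND1 gave 0.05 (SE 0.24, adjusted p = 0.899), with an interval of -0.50 to 0.60 that leaves room for a change of either sign. By limma 0 of the 5 genes therefore passed, against 0.0131% of all genes, which is 2 genes of 15270. At an unadjusted p under 0.05 the figures were 4 of 5 and 4706 of 15270.

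That count changed with the libraries that set the spread. Without C24h B, a library outside the pair compared, 4 of the 5 genes passed in limma, against 23.5% of all genes, with the same fold changes and adjusted p of 0.0132 for SAG29, 0.0373 for SAG101, 0.0147 for LSD1 and 0.0257 for BETA-VPE. The adjusted p of DND1 was then 0.895. Without C24h C, 1 of the 5 passed, against 9.14% of all genes. With C24h B kept, 4 of the 5 also passed with all 15 libraries in the fit (17.6% of all genes) and with library quality weights (28.5%). On the 8 libraries taken as recovered reads, DESeq2 called 3 of the 5 genes and 10.1% of all genes, and edgeR called 0 of the 5 and 0 of all. These fits lacked T24h B, the T24h pool nearest to the controls in SAG29 and BETA-VPE, which favours a difference in these genes. In limma without T24h B their log2 fold changes were 3.39 and -2.39, and 0 of the 5 passed (0% of all genes). The 3 groups without harvest B gave 3 of 5, against 17.9% of all genes. The calls over all genes thus were also more in each of these fits that called any of the 5.

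Against control fruit of the same age, T24h did not stand apart from C24h for any of the 5 genes, against 11.5% of all genes that did. The log2 fold changes were 1.56 for SAG29 (SE 0.78, limma adjusted p = 0.405), 0.49 for SAG101 (SE 0.23, adjusted p = 0.394), 0.53 for LSD1 (SE 0.23, adjusted p = 0.378), -0.10 for DND1 (SE 0.24, adjusted p = 0.868) and -1.60 for BETA-VPE (SE 0.58, adjusted p = 0.378). Thus 0 of 5 genes passed, against 0% of all genes, with 2 of 5 and 1987 of 15270 at an unadjusted p under 0.05. On recovered reads edgeR and DESeq2 also called 0 of the 5, against 0% and 0.0982% of all genes. Without C24h B, SAG29 (2.36, adjusted p = 0.0438), LSD1 (0.78, adjusted p = 0.0212) and BETA-VPE (-2.10, adjusted p = 0.0350) passed in limma, which is 3 of 5 against 16.9% of all genes, and SAG101 (0.63, adjusted p = 0.0986) did not. C24h B had been singled out for its likeness to treated libraries, so this fit favours such calls and is no independent test.

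Harvest B differed from the others at 24 h. The T24h to C24h ratio of SAG29 was 8.13 in harvest A and 6.95 in C, and 0.453 in B. For SAG101 it was 2.03 and 1.38, and 0.984 in B, and for LSD1 1.73 and 1.90, and 0.911 in B. DND1 gave 1.13 and 1.14, and 0.633 in B. BETA-VPE gave 0.0976 and 0.281, and 1.28 in B. All 5 genes thus had a ratio on the other side of 1 in harvest B, where the control pool C24h B was high in SAG29 and LSD1 and low in BETA-VPE, and the treated pool T24h B was the lowest of its group in SAG29, LSD1 and DND1 and the highest in BETA-VPE. With 1 library per harvest and group this difference between harvests has no test.

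**Figure D3:**
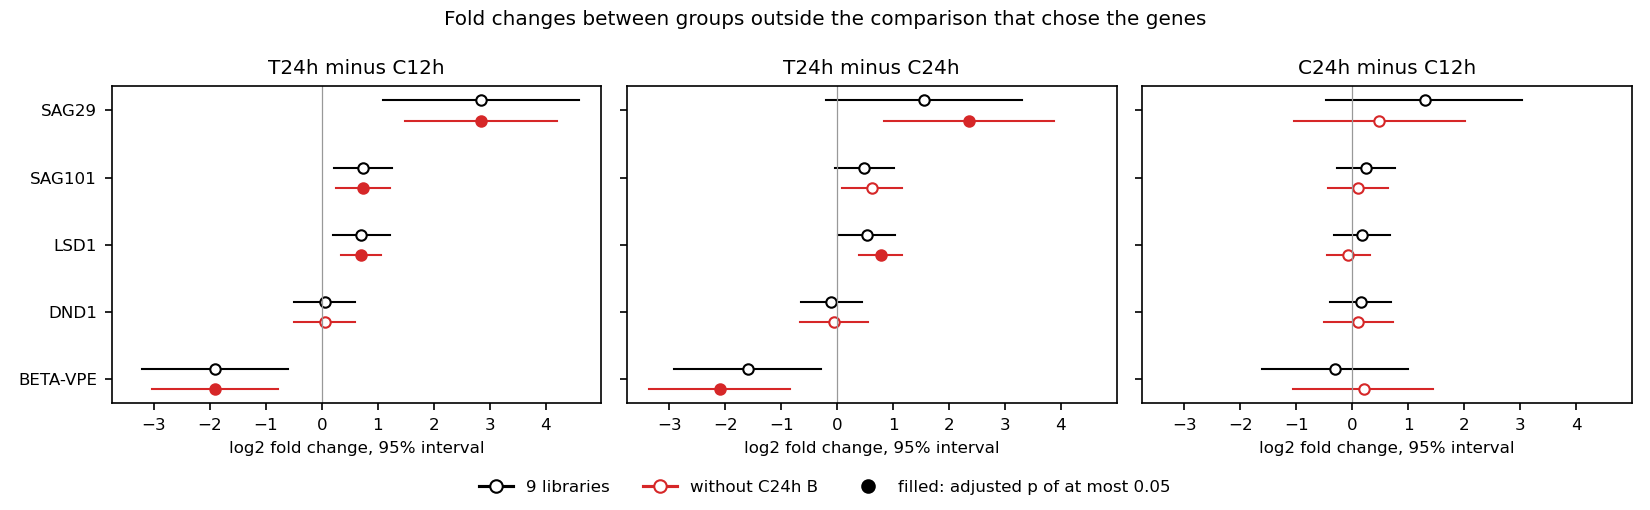
Log2 fold changes with 95% intervals from limma between groups outside the comparison that chose the genes, with all 9 libraries in black and without C24h B in red, filled where the adjusted p was at most 0.05. With 9 libraries no point is filled, and without C24h B SAG29, LSD1 and BETA-VPE are filled against both controls and SAG101 against C12h alone. C24h B was left out for its likeness to treated libraries, which favours such calls.

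Storage without ethylene gave no call. From C12h to C24h the log2 fold changes were 1.29 (SE 0.78) for SAG29, 0.24 (SE 0.23) for SAG101, 0.17 (SE 0.23) for LSD1, 0.15 (SE 0.24) for DND1 and -0.31 (SE 0.58) for BETA-VPE, with limma adjusted p of 0.945 to 0.953. By limma 0 of 5 genes passed against 0% of all genes, and 0 of 5 and 359 of 15270 had an unadjusted p under 0.05. On recovered reads edgeR and DESeq2 called 0 of the 5, against 0% and 0.0262% of all genes. Nor did the groups stand apart for any of the 5 between C12h and C24h (7.88% of all genes), C0h and C12h (20.2%) or C0h and C24h (9.02%). The interval of SAG29, -0.47 to 3.04, is wide enough to hold a large rise, and without C24h B its fold change fell to 0.48.

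The treated fruit were also set against the start and against each other, as descriptions that share C0h or T12h with the choice. From C0h to T24h the log2 fold changes were 2.31 for SAG29, 0.85 for SAG101, 0.68 for LSD1, -0.15 for DND1 and -2.49 for BETA-VPE, and 4 of 5 genes stood apart (39.4% of all genes). From T12h to T24h they were -0.18, -0.49, 0.11, -0.94 and -0.16 in the same order of genes. DND1 alone of the 5 stood apart between the 2 treated groups, against 29.9% of all genes, and its T24h to T12h ratio was 0.623, 0.358 and 0.632 in harvests A, B and C. SAG29, LSD1 and BETA-VPE thus had a T24h mean close to that of T12h. The mean of DND1 was back within the range of the control means. For SAG29 and BETA-VPE the close means joined harvests that moved in opposite directions. In harvests A, B and C the T24h to T12h ratio of SAG29 was 1.93, 0.384 and 0.924. That of BETA-VPE was 0.387, 1.7 and 1.08, and that of LSD1 lay between 0.926 and 1.23. The 95% intervals, -1.61 to 1.25 for SAG29 and -1.31 to 0.98 for BETA-VPE, leave room for a change of either sign.

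Each gene was then matched with the 2 genes whose log2 levels followed it most closely over the 15 libraries, among 3657 other tested genes with a symbol. The libraries share groups and harvests, so the correlations describe these pools and carry no test. SAG29 was closest to OPT1, an oligopeptide transporter (r = 0.97), and to PEX19-1, a peroxin of peroxisome assembly (r = 0.97). OPT1 averaged 33.3 ± 14.8 normalized counts in C0h and 1087 ± 291 in T12h (SD, n = 3), with 1129 in C24h B and 191 in T24h B. Both 24 h pools of harvest B, unusual in SAG29, were among the 15 libraries of the correlation that picked OPT1. SAG101 was closest to MUR4, an epimerase that makes UDP-arabinose for the cell wall (r = 0.97), and to AAP3, an amino acid permease (r = 0.96). AAP3 averaged 1757 ± 907 in C12h and 12723 ± 2018 in T12h (SD, n = 3).

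LSD1 was closest to MAG1 (r = 0.97) and to CUE1, a phosphoenolpyruvate translocator of the plastid envelope (r = 0.97). CUE1 averaged 489 ± 138 normalized counts in C12h, 1361 ± 90.2 in T12h and 1895 ± 340 in T24h (SD, n = 3). DND1 was closest to PHOX1 (r = 0.96) and to GA2OX8, an oxidase that inactivates gibberellins (r = 0.95). GA2OX8 averaged 44.6 ± 26.3 in C12h, 520 ± 123 in T12h and 61.9 ± 24.9 in T24h (SD, n = 3), so that it too was high in T12h alone. BETA-VPE was closest to MHX, a vacuolar exchanger of magnesium and zinc ions for protons (r = 0.97), and to ERD3, a gene named for its early response to dehydration (r = 0.96). ERD3 averaged 329 ± 126 in C0h and 71.9 ± 11.1 in T12h (SD, n = 3).

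The relatives of the 5 genes did not share one pattern. PAD4, the other partner of EDS1, averaged 427 ± 62.3 normalized counts in C12h, 464 ± 85.6 in T12h and 868 ± 162 in T24h (SD, n = 3), and its log2 fold change of 1.02 from C12h to T24h had a limma adjusted p of 0.0936. CNGC4, the channel subunit that works beside DND1, averaged 120 ± 33.4 in C12h, 60.7 ± 19.4 in T12h and 45.1 ± 12.1 in T24h, the opposite direction to DND1 in T12h. Its change from C12h to T12h was -1.0 on the log2 scale (SE 0.38, adjusted p = 0.0702). LOL1 and LOL2, which resemble LSD1, stayed low in every library, between 3.46 and 26.9 and between 3.06 and 16.7. DELTA-VPE, the other processing enzyme matched, reached at most 1.62 normalized counts in a library.

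Among the other sugar transporters of the SWEET family, SWEET2 was higher in T12h than in C12h. Its C12h libraries A, B and C held 11.6, 16.4 and 10.6 normalized counts and its T12h libraries 30.1, 47.7 and 87.7, which do not overlap. On the log2 scale the difference was 1.91 (SE 0.46, limma adjusted p = 0.0133), and the T24h mean was back at 9.91 ± 3.75. SWEET7 averaged 468 ± 49.0 in C12h and 520 ± 70.0 in T12h. SWEET3 averaged 44.4 ± 31.4 and 11.8 ± 12.3 in the same groups, with an adjusted p of 0.129. SWEET4 and SWEET9 stayed under 5 normalized counts in every library and were not tested.

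The wider pathway was read from 6 lists of Arabidopsis gene symbols, with the 5 genes left out. They matched 63 papaya genes, of which 59 were tested, 3 of them in more than 1 list. Between C12h and T12h, 6 of the 59 rose and 5 fell in limma with all 15 libraries, which is 18.6%, against 24.1% of all genes tested. The median log2 fold change was 0.17, against -0.01 over all genes. The count depended on single harvests and libraries, and so did the calls over all genes. In limma it was 1 without harvest A (1.96% of all genes) and 0 without harvest C (0% of all genes), where 13 of the 59 and 23.0% of all genes had an unadjusted p under 0.05. It was 4 without C12h A (5.51%), C12h C (5.74%) or T12h C (7.55%), and 7 without T12h B (12.7%). It was 18 without C24h C (29.0%) and 22 without C24h B (33.9%). On recovered reads edgeR called 7 (10.3% of all genes) and DESeq2 10 (20.7%).

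Of 9 tested genes listed for proteases and nucleases of cell death, CEP1 rose and none fell (11.1%, below the 24.1% of all genes). The list also held CYSB, a cystatin, which inhibits cysteine proteases. CEP1 is a papain-like cysteine endopeptidase with a signal for retention in the endoplasmic reticulum, made in plant cells that are dying. Its C12h libraries A, B and C held 1845, 10862 and 1072 normalized counts, and its T12h libraries 27231, 33577 and 45257. All treated pools were above all C12h pools, and the log2 fold change was 3.64 (SE 1.05, limma adjusted p = 0.0251). In C24h the values were 11802, 51236 and 1412, so that C24h B stood at the level of the T24h pools.

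Of 16 tested genes of lesion formation and EDS1 signalling, 2 rose and 3 fell between C12h and T12h (31.2%, against 24.1% of all genes). BON3, a copine-type restrainer of cell death, rose by 1.17 on the log2 scale (SE 0.20, limma adjusted p = 0.00404). SSI2, the plastid stearoyl-acyl carrier protein desaturase whose loss gives spontaneous lesions, rose by 1.1 (SE 0.38, adjusted p = 0.0468), from a mean of 1863 ± 311 to 4000 ± 598 normalized counts (SD, n = 3). ACD5, a ceramide kinase whose loss leads to spreading cell death, fell by 2.15 (SE 0.44, adjusted p = 0.00774). Its C12h values in harvests A, B and C were 749, 423 and 859 and its T12h values 169, 131 and 138, with no overlap, and in T24h it averaged 481 ± 312. EDR1, a protein kinase that restrains defence and was named after its value was seen, fell by 1.03 (SE 0.21, adjusted p = 0.00764).

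Of 8 tested genes of chlorophyll breakdown, 0 rose and 2 fell in limma, with 3 at an unadjusted p under 0.05 (39.9% of all genes). The share called, 25%, was close to the 24.1% of all genes. ACD1, which is pheophorbide a oxygenase and stands in both lists, fell by 1.16 (SE 0.37, adjusted p = 0.0346), from 156 ± 20.9 to 70.0 ± 19.5 normalized counts. PPH, which removes the phytol tail of pheophytin, fell by 0.95 (SE 0.24, adjusted p = 0.0159), from 670 ± 127 to 344 ± 44.5 (SD, n = 3). The median log2 fold change of this list was -0.58, against -0.01 over all genes. The summed green tissue markers were 3133 to 4245 in C12h and 2519 to 3090 in T12h, and their part in these values was not tested.

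Of 18 tested genes of autophagy and of the BAG cochaperone family, 2 rose and 1 fell (16.7%, below the 24.1% of all genes). ATG18H rose by 1.25 (SE 0.33, limma adjusted p = 0.0175) and ATG13, a regulatory subunit of the kinase that starts autophagy, by 1.23 (SE 0.31, adjusted p = 0.0161). ATG13 averaged 686 ± 177 normalized counts in C12h, 1576 ± 184 in T12h and 844 ± 248 in T24h (SD, n = 3). BAG5 fell by 1.73 (SE 0.35, adjusted p = 0.00775), from 106, 94.95 and 125 in C12h to 33.4, 31.8 and 30.0 in T12h in harvests A, B and C. The groups stood far apart, and the T24h mean of BAG5 was 67.1 ± 17.4.

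Of 8 other tested senescence genes, 0 passed in limma between C12h and T12h, against calls for 24.1% of all genes. An unadjusted p under 0.05 was found for 3 of them, against 39.9% of all genes. The nearest to the adjusted threshold was SAG20, at 1.55 on the log2 scale (SE 0.54, adjusted p = 0.0509), named after its value was seen. In the other comparisons 0 of the 59 listed genes passed in limma, against 0.0131% of all genes between C12h and T24h and 0% in the other 2. At an unadjusted p under 0.05 there were 24 of 59 between C12h and T24h (30.8% of all genes), 8 between C24h and T24h (13% of all genes) and 1 between C12h and C24h (2.35% of all genes). DESeq2 on recovered reads called 7 between C12h and T24h, with 10.1% of all genes. It called 0 between C24h and T24h (0.0982% of all genes) and 0 between C12h and C24h (0.0262%). The count by edgeR was 0 in all 3, with 0% of all genes. Without C24h B, limma called 20 of the 59 between C12h and T24h, against 23.5% of all genes, and 20 between C24h and T24h, against 16.9%. Leaving out C24h B for its likeness to treated libraries favours such calls.

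**Figure D4:**
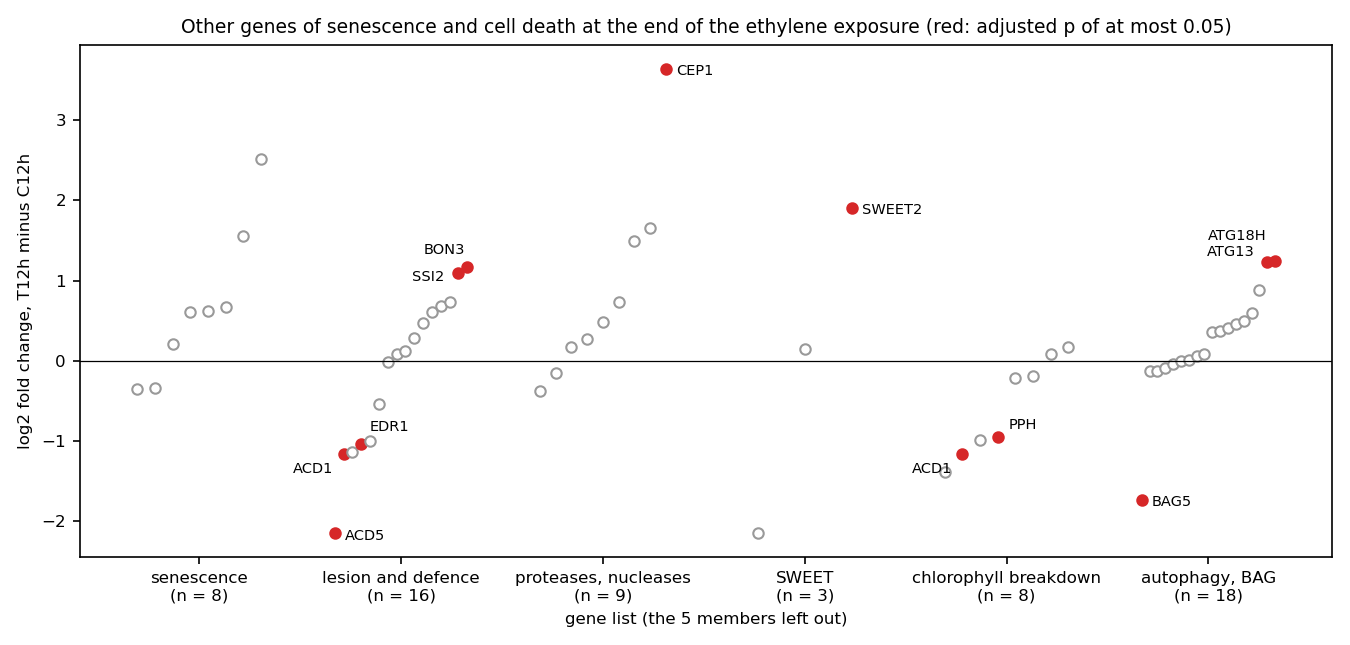
Log2 fold change from C12h to T12h of the other listed genes, by list, each point a gene and red where the limma adjusted p was at most 0.05. CEP1 has the highest value at 3.64 and ACD5 the lowest of the red points at -2.15.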

How the data were processed

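RNA-seq was made from pulp in 15 libraries, 3 of each of 5 groups. Per the study's methods, SeqyClean trimmed the reads, FastQC checked them, and STAR placed them on the Papaya1.0 genome, with only unique alignments retained. The counting tool is not given in the sources used here. The signal values deposited by the authors were gene counts normalized with the size factors of DESeq2, and all 15 columns were used as deposited. Each value was a whole multiple of the worth of 1 read, to within 0.001 in 100% of values. The steps of T12h B and T24h B, 0.9941 and 1.006, were not taken as recovered reads, so counts were rebuilt for 13 libraries, 8 of them among the 9 of the tests.

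The 5 genes and the 6 gene lists were chosen with earlier results of these data known. To each value 1 was added before taking log2, and limma 3.58.1 (R 4.3.3) was fitted with its variance trend to the 15270 genes whose mean reached 5 normalized counts. P-values were two-sided and adjusted by Benjamini and Hochberg over all these genes, with a threshold of 0.05. Comparisons that involve C0h or T12h carry no test for the 5 genes. Other listed genes between C12h and T12h were tested with all 15 libraries in the fit. Libraries within a group were separate pools, and their reads differed beyond counting error in all 11 pairs (chi-square over its degrees of freedom 15.7 to 156).

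Genes were named by rule: the 5 genes, the 2 with the highest Pearson r to each, the matched relatives of a member, and per list up to 2 rises and 2 falls past the threshold between C12h and T24h, or between C12h and T12h where none passed there. The harvest letters pair libraries across groups by label. Deviations from group means correlated with a median r of -0.0351 within a harvest (n = 30 pairs) and -0.0187 between harvests (n = 60). The model had no harvest term except in the alternative with a block. Symbols came from a RefSeq table of another assembly, ASM5485532v1, used for names alone, which held 17406 of 19817 identifiers of the LOC type. Gene lengths were not used, so levels were not compared between genes.

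Results were recomputed with TMM or quantile scaling, with 0.5 or 5 as the added value, with every gene above 0 or those with a mean of 50, with harvest as a replicate block, with all 15 libraries or only the 2 groups in the fit, with quality weights, without each library or harvest, and by edgeR 4.0.16 and DESeq2 1.42.0 on recovered reads. The limma fit on those libraries alone was added after the data were seen. The scripts were tested on simulated data.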

Additional observations from a re-analysis of the deposited data

How the results depend on the processing

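Precision was limited by 3 pools per group and by C24h B. Of 25 alternatives, 18 left the count of the 5 genes past the threshold between C12h and T24h at 0 (0% to 0.0703% of all genes called). It was 4 with quality weights (28.5% of all genes called), with all 15 libraries (17.6%) or with only the 2 groups in the fit (23%). It was 3 without harvest B (17.9%) and 3 in DESeq2 on recovered reads, which lacked T24h B (10.1%). When each library was left out in turn it was 0 to 4 (0% to 23.5%). Between C24h and T24h it was 4 with quality weights (31.9%), 3 without harvest B (13.6%) and 0 to 3 when each library was left out (0% to 16.9%). Between C12h and C24h it was 0 in all 25, where 0% to 7.73% of all genes were called. SAG29, SAG101, LSD1 and BETA-VPE kept their direction in both comparisons with T24h under all 25 alternatives. After quantile normalization the log2 fold change between C12h and T24h fell from 0.73 to 0.38 for SAG101 (limma adjusted p = 0.19). For LSD1 it fell from 0.70 to 0.42 (adjusted p = 0.144). It was 2.67 for SAG29 and -1.99 for BETA-VPE. Between C24h and T24h SAG101 fell from 0.49 to 0.25 and LSD1 from 0.53 to 0.36. DND1 did not keep its direction. Its log2 fold change between C12h and T24h was -0.35 after quantile normalization, -0.22 without harvest A, -0.09 without harvest C and -0.12 to 0.29 when each library was left out. Between C24h and T24h it was 0.18 without harvest B, 0.11 in edgeR, 0.14 in DESeq2, 0.14 in limma on the same libraries, and -0.26 to 0.14 when each library was left out. Between C12h and C24h, LSD1 gave -0.02 without harvest B and -0.07 to 0.35 when each library was left out, and BETA-VPE gave 0.03 with quality weights, 0.00 without harvest B and -0.59 to 0.20.

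With the harvest as a replicate block, 0 of the 5 genes passed in each of the 3 comparisons, against 0% of all genes in each. SAG29 between C12h and T24h kept a log2 fold change of 2.84 (limma adjusted p = 0.0918). For the listed genes, 14 passed between C12h and T12h in place of 11 (23.1% and 24.1% of all genes). The block changed no other count of the 5 genes or of the listed genes past the adjusted threshold.

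For the listed genes between C12h and T24h the count was 23 with quality weights (28.5% of all genes called) and 15 with all libraries (17.6%). It was 20 with only the 2 groups (23%), 15 without harvest B (17.9%) and 7 in DESeq2 (10.1%). When each library was left out it was 0 to 20 (0% to 23.5%). Between C24h and T24h it was 22 with quality weights (31.9%), 14 without harvest B (13.6%) and 0 to 20 when each library was left out (0% to 16.9%). Between C12h and C24h it was 4 with quality weights (7.73% of all genes). Between C12h and T12h it was 25 with quality weights (44.3%), 24 with only the 2 groups (37.2%), 1 without harvest A (1.96%) and 0 without harvest C (0%). It was 7 in edgeR (10.3%), 7 in limma on the same libraries (12.3%) and 4 to 22 when each library was left out (5.51% to 33.9%). The causes of these changes were not tested, beyond the fewer libraries of such fits.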

Other observations

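Of the 9 tested genes listed for proteases and nucleases of cell death, 5 stood higher in T24h than in C12h with no overlap. These were CEP1, BFN1, XCP1, RNS3 and RNS2. Only 1 stood lower (MC3, a metacaspase, from a mean of 58.9 to 36.5 normalized counts), and 3 overlapped, among them the cystatin CYSB. Of all genes 44.2% did not overlap. None of the 9 passed in limma, against 0.0131% of all genes. The genes below were chosen after their values were seen, so their values and fold changes are descriptions and carry no test. BFN1, a nuclease of senescence and programmed cell death, held 21.5, 28.3 and 28.4 normalized counts in C12h A, B and C and 84.7, 211 and 123 in T24h (log2 fold change 2.29, SE 0.49). XCP1, a cysteine protease of xylem vessels, held 8.05, 7.30 and 4.06 in C12h and 33.9, 108 and 112 in T24h (log2 fold change 3.38, SE 0.94). RNS3, a secreted ribonuclease, held 4.58, 8.15 and 0 in C0h, 1.79, 0.913 and 0.812 in C12h, and 35.1, 124 and 121 in T24h. The C12h values lay at the floor, since 1 read was worth 0.894, 0.913 and 0.812 in these libraries. In T12h XCP1 and RNS3 were nearer to the controls than in T24h, with 16.7 to 31.1 normalized counts for XCP1 and 1.0 to 11.1 for RNS3. C24h B held 109 for BFN1, 103 for XCP1 and 109 for RNS3, at the level of T24h, while C24h C held 1.74 for RNS3.

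CEP1 was nearly the same in the 3 T24h pools, at 53286, 52690 and 50667, where SAG29 ranged from 553 to 2259 in the same pools. T24h B, which was nearest to the control pools in SAG29 and BETA-VPE, was thus level with the other T24h pools in CEP1.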
